A study of Mus musculus with 8 samples.

Results

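The 10 genes described here are *Gfap*, *Vim*, *Aqp4*, *Gja1*, *S100b*, *Slc1a2*, *Slc1a3*, *Glul*, *Aldh1l1* and *Sox9*, a set of astrocyte identity and reactivity genes chosen by name, and they are 10 of the 38031 genes in the count table. They were followed in 8 libraries of total RNA from the primary motor cortex (M1) of male Swiss Webster mice, which received a lentivirus at postnatal day 21 to 25 and gave tissue at day 49 to 53. All 8 mice carried mCherry and an shRNA driven by the *Synapsin I* promoter, which is active in neurons. In 4 mice the shRNA was directed against *Fezf2*, a transcription factor of deep-layer projection neurons, and in the 4 controls it was a *non-silencing shRNA*. The tissue was dissected by its mCherry signal and holds every cell type of the region, so that fewer astrocytes and less RNA per astrocyte cannot be told apart in these libraries. The labels do not describe an untreated or sham-injected group, so the effect of the injection itself on astrocyte genes was not measured.

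Astrocytes take up the glutamate and potassium that neurons release, couple to each other through gap junctions, and surround blood vessels with processes rich in water channels. After injury or inflammation they become reactive, and the best known sign of that state is more of the intermediate filament proteins GFAP and vimentin. Most of the genes below are used as astrocyte markers in the cortex, but *Vim* is also made by vascular, meningeal and ependymal cells, *S100b* and *Glul* by part of the oligodendrocyte lineage, and *Gja1* by meningeal cells.

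The shRNA is shown because its letters can be set against the transcripts of the 10 genes. The sense strand is 19 nt long, and in the antisense strand the capitals mark the seed (bases 2 to 8).
*Fezf2 shRNA*, sense: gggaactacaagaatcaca
*Fezf2 shRNA*, antisense: tGTGATTCttgtagttccc
The letters that pair with the seed, GAATCAC, were in the counted transcripts of 0 of the 10 astrocyte genes, and in 13.5% of the 8961 coding transcripts that stand for tested genes. The longest stretch of the sense strand found in any annotated transcript of the 10 genes was 10 nt, in *Aqp4*, and in the other genes it was 7 to 9 nt.

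Promoters of 8 of the 10 genes were available from RefSeq (GRCm38.p6), each with 250 bases before and 50 after the annotated start. Those of *Gfap* and *Vim* are shown because these filament genes varied most between libraries, and that of *Slc1a2* because its start decides which part of the gene was counted. A set of 4 motifs was searched on both strands. These were TTCNNNGAA, bound by STAT factors, TTGGCA, part of the site of NFI factors, ACAAAG, bound by SOX factors, and TATAAA, the TATA box, and no hit in the promoters shown overlapped another. Capitals mark the hits.
*Gfap*, chr11:102897151-102897450, minus strand: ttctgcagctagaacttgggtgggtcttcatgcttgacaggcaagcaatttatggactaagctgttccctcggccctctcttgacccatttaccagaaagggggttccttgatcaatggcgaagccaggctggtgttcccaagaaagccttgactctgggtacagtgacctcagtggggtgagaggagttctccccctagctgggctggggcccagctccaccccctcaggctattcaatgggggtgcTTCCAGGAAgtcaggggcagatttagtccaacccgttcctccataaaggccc
*Vim*, chr2:13574061-13574360, plus strand: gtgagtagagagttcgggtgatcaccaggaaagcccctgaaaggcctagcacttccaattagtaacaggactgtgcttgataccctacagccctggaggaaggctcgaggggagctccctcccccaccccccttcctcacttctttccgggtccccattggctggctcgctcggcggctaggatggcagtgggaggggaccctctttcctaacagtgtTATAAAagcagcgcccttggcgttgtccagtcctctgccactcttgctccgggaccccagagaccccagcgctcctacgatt
*Slc1a2*, chr2:102706188-102706487, plus strand: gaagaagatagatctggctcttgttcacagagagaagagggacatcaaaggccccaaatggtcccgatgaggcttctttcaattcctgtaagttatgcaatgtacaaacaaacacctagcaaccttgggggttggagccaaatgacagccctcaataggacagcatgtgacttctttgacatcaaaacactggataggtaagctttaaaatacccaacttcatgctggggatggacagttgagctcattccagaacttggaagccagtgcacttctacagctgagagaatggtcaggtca
The *Gfap* promoter held TTCNNNGAA from base 249, a motif present in 8.3% of 32851 promoters of this length. The *Vim* promoter held TATAAA from base 219, as did 13.6% of promoters at some position. The *Slc1a2* promoter shown, at the start of the counted transcript, held none of these letters. A wider annotated *Slc1a2* transcript starts 47.8 kb before that, and its start is not covered here.

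The libraries had 54684016 to 58003814 counts on genes. *Fezf2*, the targeted gene, had 688, 767, 735 and 702 normalized counts in the controls and 621, 583, 568 and 592 in the *Fezf2 shRNA*-treated samples, which did not overlap (log2 fold change -0.29, SE 0.0760, adjusted p = 0.0765, edgeR). Of the 9959 genes tested, 218 (2.19%) passed the threshold of an adjusted p of at most 0.05 and a log2 fold change of at least 0.2 in size, 205 upward (2.06%) and 13 downward (0.131%). Counts cover introns as well as exons, and the median log2 fold change ran from -0.12 for genes under 10 kb to 0.29 for genes of 300 kb or more. An offset that removes this trend with gene length left 2 genes past the threshold (0.0201%), and log2 fold changes with that offset are given below as the length-corrected values. For *Fezf2* the length-corrected value was -0.18 (edgeR, adjusted p = 0.434). *Fezf2* was among the 11.8% of genes tested whose treatments did not overlap.

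None of the astrocyte genes passed the test for a change with *Fezf2 shRNA*. Of the 10 genes, 9 were tested, and 0 passed the threshold with edgeR or with DESeq2, which called 7.37% of all genes tested. *S100b*, 1 of the 9, had an unadjusted p under 0.05 and was lower with *Fezf2 shRNA*, where 19.7% of all genes tested had such a p and 7.85% had it downward. Adjusted p-values ran from 0.208 to 0.843. The log2 fold change was above 0 for 4 genes and below 0 for 5, with a median of -0.07, against -0.03 over all genes tested. The treatments overlapped in all 10 genes. Over all genes tested 11.8% did not overlap, and for 10 genes a count of 0 is near that share.

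**Figure D1:**
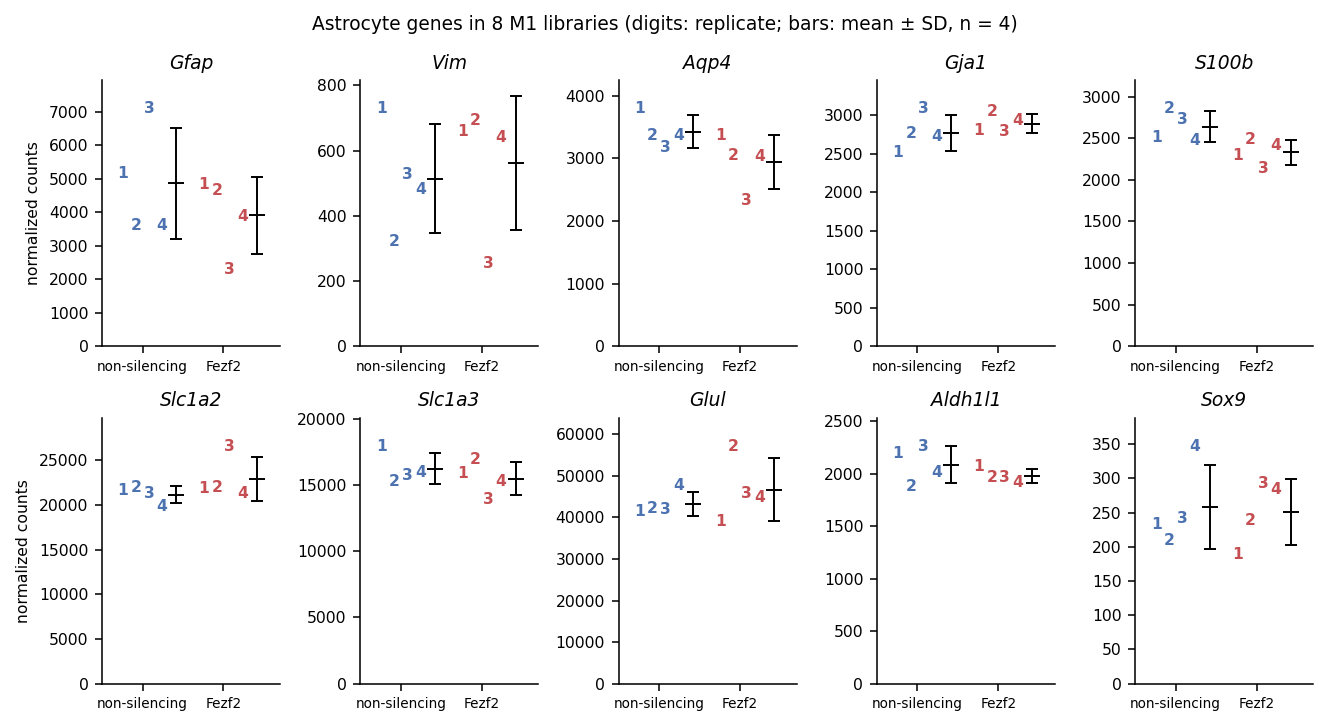
Normalized counts (vertical axis, starting at 0) of the 10 genes in each library. Digits are the replicate numbers of the labels, and the bars give the mean ± SD of 4 libraries. The treatments overlap in every panel, and *Gfap* and *Vim* spread the most, from 2303 to 7095 and from 254 to 728.

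**Figure D2:**
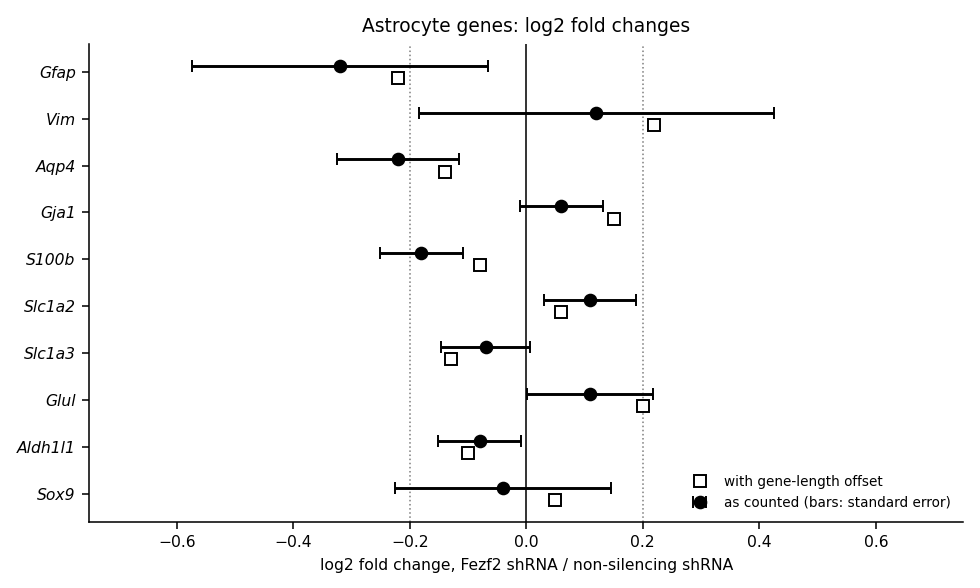
Log2 fold change of each gene, *Fezf2 shRNA* over *non-silencing shRNA* (horizontal axis). Circles with standard errors are the values as counted, with *Sox9* from the fit of genes over 1 CPM, open squares are the length-corrected values, and dotted lines mark 0.2. *Gfap* has the lowest value, -0.32, and *Vim* the highest, 0.12.

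The intermediate filament genes came first among the genes of reactivity. *Gfap* (chromosome 11, 102887336 to 102897131, minus strand, 9 exons) encodes the filament protein that marks astrocytes in most stains. It had 5164, 3613, 7095 and 3609 normalized counts in the controls and 4832, 4651, 2303 and 3873 in the *Fezf2 shRNA*-treated samples. The highest library was a control and the lowest a *Fezf2 shRNA* library, and the remaining *Fezf2 shRNA* libraries lay within the control range. The means were 4870.3 ± 1654 and 3915 ± 1152 (SD, n = 4), giving a log2 fold change of -0.32 with a 95% confidence interval from -0.88 to 0.25 (edgeR, SE 0.254, adjusted p = 0.503). Leaving out control replicate 3 gave -0.07, and leaving out *Fezf2 shRNA* replicate 3 gave -0.12. *Gfap* lies inside the 213 kb interval of a long noncoding RNA of the opposite strand, *Gm26668*, and reads were counted without regard to strand.

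*Vim* (chromosome 2, 13573952 to 13582826, plus strand, 9 exons) encodes vimentin, which joins GFAP in the filaments of reactive astrocytes. It had 728, 322, 525 and 481 normalized counts in the controls and 658, 692, 254 and 639 after *Fezf2 shRNA*. Here 3 of 4 *Fezf2 shRNA* libraries were close together and *Fezf2 shRNA* replicate 3 was far below them. The means were 514 ± 167 and 561 ± 206 (SD, n = 4), and the log2 fold change of 0.12, with an interval from -0.55 to 0.80 (edgeR, SE 0.305, adjusted p = 0.843), turned to -0.04 without control replicate 2. The intervals of both genes reach past 0.5 in size, so changes of that size in either direction for *Vim*, or downward for *Gfap*, were not excluded. Their coefficients of variation among the controls, 34.0% and 32.5%, were higher than those of 98.8% and 98.7% of the genes tested, whose median was 8.26%. *Fezf2 shRNA* replicate 3 was the lowest of the 8 libraries for *Gfap*, *Vim* and also for *Aqp4*, *S100b* and *Slc1a3*, and it was the highest for *Slc1a2*.

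*Aqp4* (chromosome 18, 15389496 to 15403758, minus strand) encodes the water channel of astrocyte endfeet. It had 3793, 3373, 3174 and 3366 normalized counts in the controls and 3359.5, 3049, 2324 and 3034 after *Fezf2 shRNA*. The ranges met only in the highest *Fezf2 shRNA* library, which exceeded the lowest control, and 3 of 4 *Fezf2 shRNA* libraries were below every control. The means were 3427 ± 261 and 2942 ± 438 (SD, n = 4). The log2 fold change was -0.22 with an interval from -0.45 to 0.01 (edgeR, SE 0.105, adjusted p = 0.272), and a two-sided exact permutation test gave p = 0.0571. Without *Fezf2 shRNA* replicate 3 the value was -0.11, and the length-corrected value was -0.14.

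*S100b* (chromosome 10, 76253853 to 76261159, plus strand) encodes a calcium-binding protein of astrocytes. It had 2507, 2855, 2726 and 2473 normalized counts in the controls and 2289.8, 2487, 2136 and 2412 after *Fezf2 shRNA*. The treatments came close to separating, with only *Fezf2 shRNA* replicate 2 above the lowest control. The means were 2641 ± 182 and 2331 ± 154 (SD, n = 4), and the log2 fold change was -0.18 (edgeR, SE 0.0717, adjusted p = 0.208, p = 0.0571 in the exact permutation test). It spans 7.31 kb, and its length-corrected value was -0.08, beside a median of -0.12 as counted for all genes under 10 kb.

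*Gja1* (chromosome 10, 56377330 to 56390415, plus strand) encodes connexin 43, the main gap junction protein of astrocytes. It had 2507, 2757, 3081 and 2715 normalized counts in the controls and 2804, 3041, 2787 and 2926 after *Fezf2 shRNA*, and all *Fezf2 shRNA* libraries lay inside the control range. The fit gave a log2 fold change of 0.06 with an interval from -0.09 to 0.22 (edgeR, SE 0.0709, adjusted p = 0.643). Its highest library was 1.23 times its lowest, against a median of 1.32 over the genes tested.

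*Slc1a2* encodes GLT-1, which clears most of the glutamate released at cortical synapses, and *Slc1a3* encodes GLAST, a related glutamate transporter. *Slc1a2* (chromosome 2, 102706438 to 102778106, plus strand, 10 exons) had 21570.2, 21978, 21238 and 19775 normalized counts in the controls and 21791, 21887, 26568 and 21313 after *Fezf2 shRNA*. Apart from *Fezf2 shRNA* replicate 3, the *Fezf2 shRNA* libraries lay within the control range. Its log2 fold change of 0.11 (edgeR, SE 0.0791, adjusted p = 0.433) was 0.04 without that library. The antisense transcript *Gm13872* lies inside it, and 25.6% of the reads counted for *Slc1a2* fall in that interval.

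*Slc1a3* (chromosome 15, 8634124 to 8710764, minus strand, 10 exons) had 17937, 15274, 15743 and 15971 normalized counts in the controls and 15838, 16906, 13921 and 15236 after *Fezf2 shRNA*. The groups overlapped widely, and the log2 fold change was -0.07 (edgeR, SE 0.0757, adjusted p = 0.637). *Glul* (chromosome 1, 153899944 to 153909723, plus strand, 7 exons) encodes glutamine synthetase, which turns the glutamate taken up into glutamine. It had 41437, 42165, 41851 and 47597 normalized counts in the controls and 38934, 57153, 45776 and 44830.5 after *Fezf2 shRNA*. Both the lowest and the highest library were *Fezf2 shRNA* libraries. Its log2 fold change of 0.11 (edgeR, SE 0.108, adjusted p = 0.590) was -0.00 without *Fezf2 shRNA* replicate 2.

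*Aldh1l1* (chromosome 6, 90550805 to 90599169, plus strand, 23 exons) encodes a folate enzyme that is found throughout the astrocytes of the cortex. It had 2195, 1878, 2264 and 2010.4 normalized counts in the controls and 2072, 1969, 1968 and 1915 after *Fezf2 shRNA*. Every *Fezf2 shRNA* library lay inside the control range, and their coefficient of variation was 3.31%. At -0.08 the log2 fold change was within the replicate spread (edgeR, SE 0.0708, adjusted p = 0.569). The antisense transcript *Gm15756* overlaps *Aldh1l1*, and its own count was 22.7% of that of *Aldh1l1*.

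*Sox9* (chromosome 11, 112782224 to 112787760, plus strand) encodes a transcription factor kept by adult astrocytes. It was under 8 CPM in all 8 libraries and was therefore tested in the fit of the 16481 genes with more than 1 CPM, in which 0.674% of genes passed the threshold. It had 233, 209, 242 and 347 normalized counts in the controls and 188, 239, 292 and 284 after *Fezf2 shRNA*, with the highest and the lowest library in different treatments. A log2 fold change of -0.04 (edgeR, SE 0.185, adjusted p = 0.939) resulted, and 0.14 without control replicate 4. That control library was also the highest for *Glul* among the controls and for the ependymal markers described below, and the part of other cell types in the *Sox9* value was not tested.

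The intervals that the authors counted allowed parts of some genes to be compared. For 6 genes with at least 2 counted intervals, the log2 ratio of the least exonic to the most exonic interval was taken in each library. The treatments overlapped in all 6 ratios. Over the 6491 tested genes with such a pair 7.43% did not overlap, so overlap in all 6 is near that share. For *Slc1a2* the ratio was -8.03, -7.34, -7.84 and -7.07 in the controls and -7.30, -6.83, -6.54 and -6.96 after *Fezf2 shRNA*. The mean was 0.66 higher with *Fezf2 shRNA* (exact permutation p = 0.0571, adjusted over the 6 genes 0.171), and 0.478% of the genes with such a pair had a difference as high. For *Aldh1l1* the difference was 0.49 (exact permutation p = 0.0571, adjusted 0.171). Its least exonic interval, ENSMUST00000127199 (90486427 to 90559386), lies mostly before the counted transcript, which starts at 90550805. The *Aldh1l1* value is therefore not a comparison of parts within the counted transcript. For *Gfap*, *Vim*, *Slc1a3* and *Glul* the difference ran from -0.09 to 0.03.

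The *Slc1a2* intervals showed where its reads lay. The widest transcript, ENSMUST00000080210, starts 47.8 kb before the counted one and also reaches further at the 3′ end. The 12.7 kb that it adds at that end to transcript ENSMUST00000111213, together with 622 bases at the 5′ end, held 77.1% of its reads. In that remainder the controls had 91067 ± 7002 and the *Fezf2 shRNA*-treated samples 89138 ± 6061 normalized counts (SD, n = 4). Over the whole widest interval the log2 fold change was 0.01 (SE 0.0901, adjusted p = 0.959 in the edgeR fit over all 52669 intervals with a mean of at least 100 reads). The 5 intervals that are under 1% exonic all lie within ENSMUST00000125085 and share reads, so they do not count as separate results. Their log2 fold changes were 0.39 to 0.67, and 1 of them passed the threshold.

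This interval, ENSMUST00000137466 (chromosome 2, 102675484 to 102735959, 60.5 kb, 0.150% exonic), had 1944, 3162, 2390.0 and 2572 normalized counts in the controls and 3269.7, 3640.1, 4409.9 and 3743 after *Fezf2 shRNA*. The groups did not overlap (log2 fold change 0.58, SE 0.131, adjusted p = 0.0410 with edgeR over intervals, in which 2.34% of intervals passed). In a two-sided exact permutation test p was 0.0286, the smallest that 4 against 4 libraries allow. The call was kept without control replicate 2 (adjusted p = 0.0108) and lost without any other library (0.0543 to 0.126). Intervals of 30 to 100 kb that were under 1% exonic had a median log2 fold change of 0.29 over the whole table, and 10.7% of these 638 intervals passed the threshold, all upward. Among them 6.27% were at or above this *Slc1a2* interval. The part of the trend with gene length in the *Slc1a2* value was not tested.

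**Figure D3:**
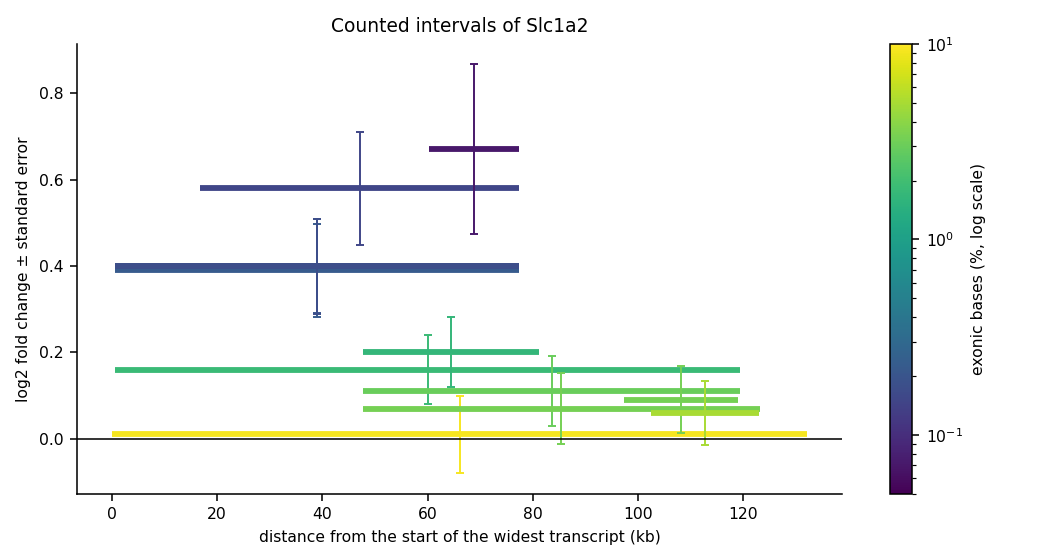
Counted intervals of *Slc1a2*. Each horizontal bar is an interval, placed by its distance from the start of the widest transcript (kb) and by its log2 fold change, with the standard error, and the color gives the share of exonic bases on a log scale. The 5 intervals under 1% exonic, which are nested and share reads, lie at 0.39 to 0.67, and the widest interval lies at 0.01.

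Per kb of annotated exon, and with intronic reads included, the mean levels over 8 libraries fell in the order *Glul* (16106), *Slc1a2* (10350.2), *Slc1a3* (3808), *S100b* (1675), *Gfap* (1659), *Gja1* (921), *Aldh1l1* (666), *Aqp4* (630.0), *Vim* (245) and *Sox9* (61.5 normalized counts per kb). *Slc1a2* had 10073 per kb of exon when its widest transcript was used. *S100b* and *Gfap* could not be ordered, since each was higher in 4 of 8 libraries, and *Aldh1l1* was above *Aqp4* in 5 of 8. *Gfap* was above *Gja1* in 7 of 8 libraries. The other neighbours in this order did not overlap over the libraries.

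Ratios of a pair of genes within a library do not depend on library size. The log2 ratio of *Gfap* to *Aldh1l1* was 1.23, 0.94, 1.65 and 0.84 in the controls and 1.22, 1.24, 0.23 and 1.02 after *Fezf2 shRNA*. The means differed by -0.24 (two-sided exact permutation test, p = 0.543, adjusted over 4 ratios 0.724). The difference was -0.01 without *Fezf2 shRNA* replicate 3 and -0.08 without control replicate 3. It was -0.63 when the widest transcript of each gene was used (exact permutation p = 0.171, unadjusted). The widest *Aldh1l1* transcript, ENSMUST00000127199 (90486427 to 90559386), lies mostly before the counted one, which starts at 90550805. It is 0.654% exonic and fell under the filter, so the -0.63 is not a ratio to the counted *Aldh1l1* transcript. The log2 ratio of *Vim* to *Gfap* was -2.83, -3.49, -3.76 and -2.91 in the controls and -2.88, -2.75, -3.18 and -2.60 after *Fezf2 shRNA*, a difference of 0.39 (exact permutation p = 0.2, adjusted 0.514) that was 0.22 without control replicate 3. For *Slc1a2* to *Slc1a3* the difference was 0.18 (exact permutation p = 0.257, adjusted 0.514), which was 0.06 without *Fezf2 shRNA* replicate 3 and 0.08 with the widest transcripts. For *Glul* to *Slc1a2* it was -0.01 (exact permutation p = 0.914, adjusted 0.914). None of the 4 ratios differed by more than the spread between libraries.

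The profile of each tested gene over the libraries was set against that of *Gfap*. The distance used was the root mean square difference of the centred log2 values, which depends on the size of the swings as well as their order. It was 0.352 for *Aqp4* and 0.371 for *Vim*, and it reached 0.522 for *Slc1a2*, with a median of 0.462 over the other genes tested. Whether genes of low spread rise and fall with *Gfap* is not shown by this distance. The 5 genes nearest to *Gfap* were *Hist2h2aa2* (0.186), *Hist2h2aa1* (0.190), *Gm20634* (0.209), *Gm20632* (0.211) and *Gm20633* (0.220). They come from 1 cluster of near-identical histone genes and the noncoding transcripts that overlap them on chromosome 3, whose reads cannot be told apart by this counting, so they count as 1 profile. *Hist2h2aa2* had 1068, 705, 1181 and 783 normalized counts in the controls and 922, 810.0, 586 and 862 after *Fezf2 shRNA*. These libraries have the same high and low ends as for *Gfap*, control replicate 3 and *Fezf2 shRNA* replicate 3.

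Other genes of astrocyte function were taken from 4 lists with 53 genes in all, of which 45 were tested. Of these, 2 passed the threshold upward and 0 downward with edgeR, and 4 passed with DESeq2 and its prior, 2 in each direction, where DESeq2 called 6.48% of all genes upward and 0.894% downward. Of the 45, 32 had a log2 fold change below 0, with a median of -0.11 beside -0.03 over all genes tested. With the length correction 34 of the 45 were below 0, with a median of -0.10 beside -0.01 over all genes tested. The list of transport and junction genes had 0 of 11 tested genes past the threshold and a median log2 fold change of -0.14. An unadjusted p under 0.05 was found for 2 of the 11, against 19.7% of all genes tested. *Slc7a10*, a transporter of serine and glycine, fell short of the threshold at -0.34 (adjusted p = 0.0827, edgeR) although its treatments did not overlap, and DESeq2 called it (-0.29, adjusted p = 0.0232). *Mlc1*, a membrane protein of astrocyte endfeet, was at -0.24 (adjusted p = 0.211).

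The metabolism list had 0 of 13 tested genes past the threshold, 2 at an unadjusted p under 0.05 (19.7% over all genes tested), and a median of -0.13. *Prodh*, the enzyme that breaks down proline, had 746, 677, 861 and 784 normalized counts in the controls and 592, 617, 524 and 587 after *Fezf2 shRNA*. Its treatments did not overlap, with a log2 fold change of -0.40 that missed the threshold in edgeR (adjusted p = 0.0568) and passed it in DESeq2 (-0.34, adjusted p = 0.00585). *Phgdh*, the first enzyme of serine synthesis, was at -0.21 (adjusted p = 0.180) and *Mt2*, a metallothionein, at -0.42 (adjusted p = 0.305).

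The secreted protein list had 1 of 9 tested genes past the threshold, *Gpc6*, a glypican that promotes synapse formation. It had 7549, 8017, 9563 and 6488 normalized counts in the controls and 13799, 13401, 11324 and 11015 after *Fezf2 shRNA*. All *Fezf2 shRNA* libraries were above all controls, and the log2 fold change was 0.65 (edgeR, SE 0.117, adjusted p = 0.0272). *Gpc6* spans 1049 kb, and its length-corrected value was 0.28. The call was lost without control replicates 1 or 4 (adjusted p = 0.0971 and 0.0736) or without *Fezf2 shRNA* replicates 1, 3 or 4 (0.0782, 0.0663 and 0.0586). *Sparcl1*, a synapse-organizing protein, was at -0.22 (adjusted p = 0.192) and *Chrdl1* at 0.21 (adjusted p = 0.359).

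The regulator list had 1 of 12 tested genes past the threshold, *Grm3*, a metabotropic glutamate receptor found on astrocytes and neurons. It had 11556, 11791, 10964 and 11227 normalized counts in the controls and 13522, 13765, 13923 and 14527 after *Fezf2 shRNA*, again without overlap. *Grm3* rose by a log2 fold change of 0.29 (edgeR, SE 0.0537, adjusted p = 0.0272), and the value was 0.08 when corrected for its length of 239.6 kb. The call was lost without control replicates 1, 3 or 4 (adjusted p = 0.0971, 0.0519 and 0.0773) or without *Fezf2 shRNA* replicates 1, 3 or 4 (0.0779, 0.0726 and 0.0696). *Fgfr3*, a growth factor receptor of astrocytes, was at -0.20 (adjusted p = 0.110) and *Id4*, a helix-loop-helix regulator, at -0.35 (adjusted p = 0.116).

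Genes tied to astrocyte reactivity were measured at lower levels, and 18 of 56 were tested. With edgeR 0 passed the threshold, where 2.19% of all genes tested did, and 0 had an unadjusted p under 0.05, against 19.7%. With DESeq2 0 passed, against 7.37%. The median log2 fold change was 0.00, with 8 of 18 below 0, and the length-corrected median was -0.04, with 15 below 0. Signaling genes made up 11 of the 18. Of the genes induced in several kinds of injury, 2 of 11 were tested. *Serpina3n*, a protease inhibitor that rises in most reactive astrocytes, had 1877, 609, 2755 and 546 normalized counts in the controls and 748, 1495, 472 and 733 after *Fezf2 shRNA*. It varied more within a treatment than between them (log2 fold change -0.75, SE 0.505, adjusted p = 0.423, edgeR), and leaving out 1 library moved it between -1.15 and -0.22. Its highest and lowest libraries were those of *Gfap*, but by the distance used above it ranked 8305 among the genes tested, counted from the nearest. That distance also grows with the size of the swings. The highest *Serpina3n* library was 5.84 times its lowest, against 3.08 times for *Gfap*, and whether both genes vary together was not tested. *Cp*, ceruloplasmin, was at 0.01 (adjusted p = 0.977).

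Most other genes of that list were at low counts. *Lcn2*, a secreted lipocalin, had at most 23.6 normalized counts in any library and *Cxcl10*, a chemokine, at most 85.6. *Timp1* had 231, 239, 119 and 168 normalized counts in the controls and 196, 82.4, 95.5 and 63.3 after *Fezf2 shRNA* (log2 fold change -0.79, adjusted p = 0.283 in the fit over 1 CPM), and *Cd44* was at 0.46 (adjusted p = 0.277). These 4 genes are named after their values were seen. Neither *Timp1* nor *Cd44* passed the threshold, and their treatments overlapped.

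Of the genes induced after endotoxin, 2 of 12 were tested, *Fkbp5*, a glucocorticoid-responsive gene, at -0.30 (adjusted p = 0.390) and *H2-T23* at 0.18 (adjusted p = 0.469). Of those induced after ischemia 1 of 12 was tested, *Ptgs2*, a cyclooxygenase that cortical neurons also make, at 0.18 (adjusted p = 0.753). *Tm4sf1*, named after its values were seen, had 118, 124, 121 and 164 normalized counts in the controls and 81.7, 90.4, 72.7 and 80.7 after *Fezf2 shRNA*. Its treatments did not overlap, but with a log2 fold change of -0.69 it did not pass the threshold in the fit over 1 CPM (adjusted p = 0.0973), and it is a gene of endothelial cells as well. The 2 tested filament partners, *Synm* and *Plec*, were at -0.06 and -0.07 (adjusted p = 0.574 and 0.644).

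Of the signaling genes upstream of reactivity 11 of 18 were tested, with 0 past the threshold and 0 at an unadjusted p under 0.05 (19.7% over all genes tested). Their median was 0.01, and their length-corrected median was -0.06. *Stat3*, the factor through which several cytokines raise *Gfap*, had 1098 to 1369 normalized counts in the controls and 1219 to 1356 after *Fezf2 shRNA* (log2 fold change 0.02, adjusted p = 0.911). The 3 with the smallest p were *Tgfbr2* (-0.20, adjusted p = 0.335), *Nfkb1* (0.13, adjusted p = 0.391) and *Ednrb* (-0.10, adjusted p = 0.406).

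**Figure D4:**
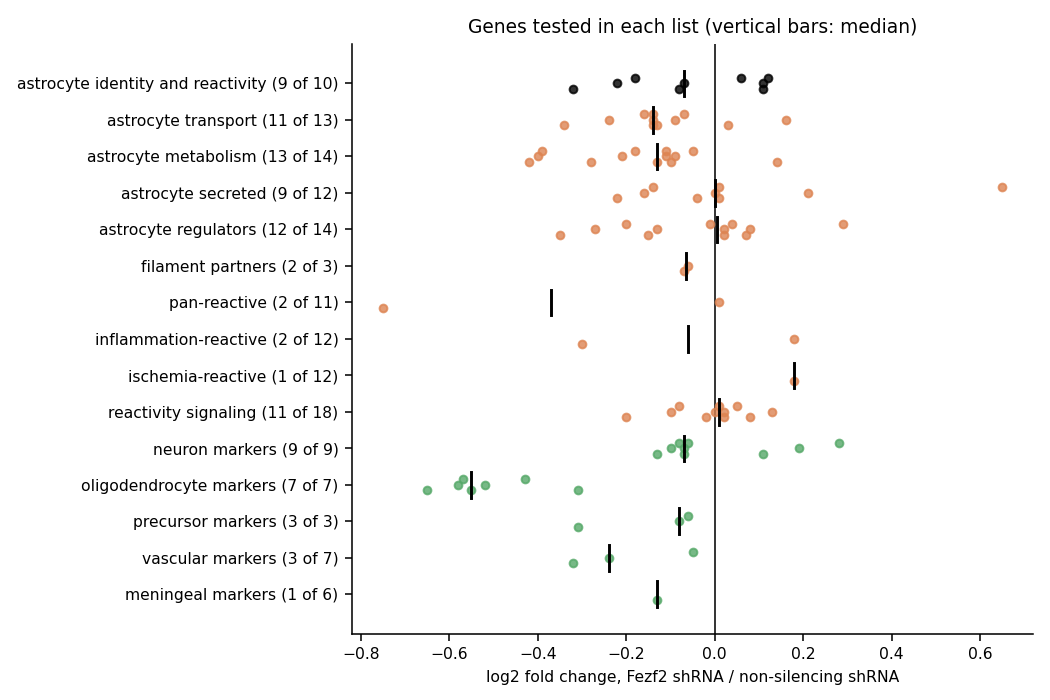
Log2 fold changes (horizontal axis) of the tested genes in each list, with the number tested of the number listed and the median as a vertical bar. Black points are the 10 genes above (9 tested), orange lists belong to astrocytes or their reactivity and green lists to other cell types, and the microglia list and the ependymal list, which has no tested gene, are left out. *Gpc6* is the highest astrocyte gene at 0.65, and all 7 oligodendrocyte genes lie below 0.

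Markers of other cell types were summed in each library, because the dissected tissue varies in what it holds. The 9 neuron markers summed to 230719 to 255319.9 normalized counts in the controls and 232594 to 249913 after *Fezf2 shRNA*. Of these markers, edgeR called 0 of 9. For 3 of the 9 the unadjusted p fell below 0.05, a level that 19.7% of all genes tested reached. *Rbfox3* was at 0.28 (adjusted p = 0.0976), *Syt1* at 0.19 (adjusted p = 0.199) and *Eno2* at -0.13 (adjusted p = 0.247), and *Rbfox3*, a gene of 418 kb that DESeq2 called, had a length-corrected value of -0.00. The 7 oligodendrocyte markers summed to 63046 to 114298 in the controls and 46845 to 76875 after *Fezf2 shRNA*. Their log2 fold changes were all below 0, from -0.65 for *Cldn11* to -0.31 for *Mbp*. An unadjusted p under 0.05 was found for 5 of 7, where 7.85% of all genes tested had it downward. With edgeR 0 of the 7 passed the threshold (adjusted p = 0.127 for *Mog* and 0.128 for *Cnp*). DESeq2 called 2 of them downward.

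Of the 12 microglia markers 9 were tested, of which 0 passed the threshold with edgeR or DESeq2. An unadjusted p under 0.05 was found for 1 of the 9, against 19.7% of all genes tested. *C1qa* and *C1qb* were at 0.27 and 0.22 (adjusted p = 0.450 and 0.621). The 7 vascular markers, of which 3 were tested, summed to 5113 to 6899 in the controls and 4599 to 5075 after *Fezf2 shRNA*, without overlap. No other list had sums without overlap, and among single genes tested 11.8% did not overlap. *Rgs5*, a gene of pericytes, was at -0.32 (adjusted p = 0.0552, and called by DESeq2 at -0.28), beside *Slco1a4* at -0.24 (adjusted p = 0.469) and *Pdgfrb* at -0.05 (adjusted p = 0.852). The precursor markers *Gpr17*, *Pdgfra* and *Cspg4* were at -0.31, -0.06 and -0.08 (adjusted p = 0.151, 0.689 and 0.725).

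Meningeal and ependymal markers also differed between libraries of the same treatment. The meningeal markers summed to 9061, 2449.5, 7493 and 7636 in the controls and 4042, 12008, 5448 and 2440.4 after *Fezf2 shRNA*, mostly through *Ptgds* (log2 fold change -0.13, adjusted p = 0.898). *Vim* was lowest among the controls in the library with the least meningeal signal, control replicate 2, but in *Fezf2 shRNA* replicate 4, with as little of it, *Vim* had 639 normalized counts. *Fezf2 shRNA* replicate 2 had the highest meningeal sum and also the highest *Glul* count. The ependymal markers *Foxj1*, *Ccdc153* and *Tmem212* summed to 267 in control replicate 4 and to 47.2 to 98.1 in the other 7 libraries. The part of these cell types in the values of *Gfap*, *Vim*, *Glul* and *Sox9* was not tested.

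**Figure D5:**
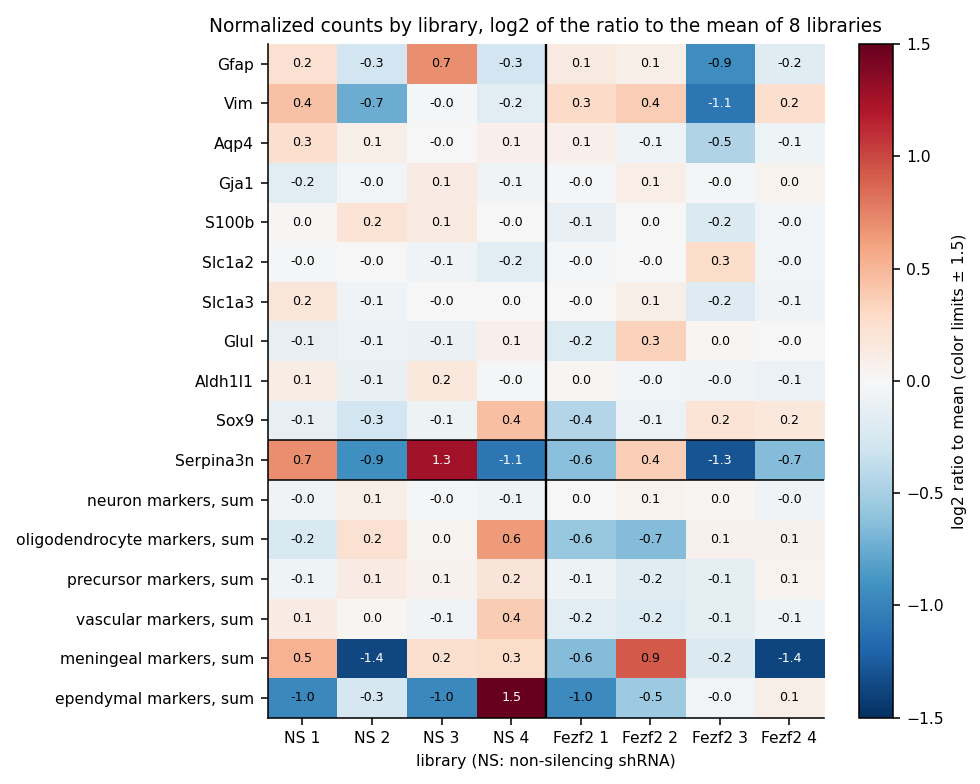
Normalized counts in each library as the log2 ratio to the mean of the 8 libraries (columns, 4 per treatment), for the 10 astrocyte genes, *Serpina3n* and the summed markers of 6 other cell types. *Fezf2 shRNA* replicate 3 is lowest for *Gfap* and *Vim*, meningeal markers are lowest in control replicate 2 and *Fezf2 shRNA* replicate 4, and ependymal markers are highest in control replicate 4.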

How the data were processed

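Total RNA of M1 tissue from 8 mice gave 1 paired-end library each, and samples were grouped by their titles. Per the labels and the methods, the authors aligned reads to mm10 (GRCm38) with TopHat2 2.1.1 and counted them over Ensembl transcripts with bedtools 2.26.0 (multiCov). The deposited values are raw counts, without normalization, over the whole interval of a transcript, introns included, on both strands. A deposited table of comparisons (fold changes and p-values from DESeq2 1.10.1) was not used.

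Of 94647 transcripts, 91320 were found in GENCODE M21, and the other 3327 held 1.824% of counts. Each of the 38031 genes was represented by its transcript with the lowest Ensembl number. Genes were kept for testing if at least 4 libraries held over 8 CPM, and they were tested with edgeR 4.0.16 (TMM, quasi-likelihood, Benjamini-Hochberg, no covariate) in R 4.3.3. Normalized counts are scaled to the mean effective library size. Single values were compared with two-sided exact permutation tests. The gene-length offset is a loess (span 0.3) per library.

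Related genes are named if they are among the 3 with the smallest p of their list, pass the threshold, or are among the 5 nearest to *Gfap*. *Stat3*, *Mbp* and the ependymal markers are outside this rule, and others outside it are marked. The members and lists were chosen with earlier results of these data known. Alternatives were other normalizations, filters, transcripts and thresholds, DESeq2 1.42.0, a replicate block, the offset, and each library left out. A simulation changed 200 of the 9959 genes, and 9899 genes then passed the filter. Among the changed genes that passed it, edgeR called 72.3% of 47 at a log2 change of -0.5 and 64% of 50 at 0.5. It called 100% of larger ones. The simulation had no trend with gene length, and its rates are not specific to genes as variable as *Gfap* and *Vim*. Promoters are from RefSeq. Depth was 54684016 to 58003814 counts, so replicate spread limits precision for all but the lowest genes. P-values measure the spread between these samples, which the labels do not tie to litters or days. Some genes are not reported here but remain in the counts and medians of their lists.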

Additional observations from a re-analysis of the deposited data

Results flagged for a closer look

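In 126 groups of 4 libraries, for the astrocyte genes, their ratios and the other genes named, 9 had 1 library far from the other 3, and chance alone gives about 6.30. *Fezf2 shRNA* replicate 3 was low for *Vim*, at 254 normalized counts where the other *Fezf2 shRNA* libraries had 639 to 692, and for *C1qb* (504 against 984 to 1077). The same library was high for *Slc1a2* (26568 against 21313 to 21887) and for *Syt1* (83506 against 77018 to 77780.4).

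Control replicate 4 was high for *Glul* (47597 against 41437 to 42165 in the other controls), for the log2 ratio of *Glul* to *Slc1a2* (1.27 against 0.94 to 0.98), for *Cspg4* (675 against 510.5 to 526) and for *Pdgfrb* (829 against 576 to 616). In control replicate 1 the log2 ratio of the least to the most exonic interval of *Gfap* was -1.88, against -1.81 in each of the other controls, a small difference on that scale.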

How the results depend on the processing

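None of the 10 astrocyte genes passed the threshold under any alternative run, and 7 of them (*Gfap*, *Aqp4*, *Gja1*, *S100b*, *Slc1a2*, *Slc1a3* and *Aldh1l1*) kept the sign of their log2 fold change under each of them. Leaving out 1 library moved *Vim* between -0.04 and 0.38, *Glul* between -0.00 and 0.19, and *Sox9* between -0.12 and 0.14. With the gene-length offset *Sox9* was at 0.05, and again at 0.05 with replicate block and offset together. *Aldh1l1* had no value with its widest transcript, which fell under the filter.

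The log2 ratio of *Glul* to *Slc1a2* (-0.01) was 0.09 with widest transcripts and 0.14 with the offset, and ran from -0.13 to 0.07 without 1 library. The difference in the *Vim* interval ratio ran from -0.17 to 0.35.

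The count of genes past the threshold, 218, was 111 with a filter of 1 CPM, 85 with no filter, 752 and 734 with DESeq2 without and with its prior, 2 with the offset, and 0 to 401 without 1 library (0 without control replicate 1, 8 without *Fezf2 shRNA* replicate 3). The 2 calls in the astrocyte lists became 1 with no filter, 4 with either form of DESeq2, 0 with the offset, and 0 to 3 without 1 library. The 0 calls among other cell types became 4 with either form of DESeq2 and 0 to 1 without 1 library, and the 0 calls among reactivity genes stayed at 0 in each alternative. The cause of these shifts was not tested.

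Same-numbered libraries of the treatments correlated at 0.3001, 0.08807, -0.133 and 0.1677, and libraries of different numbers at -0.2234 to 0.2666. The highest of all these values, 0.3001, was that of replicate 1. These values do not settle whether the numbers mark pairs. The labels do not describe a pairing, and the libraries were treated as unpaired. A replicate block gave 89 genes past the threshold, 2 with the offset added, 1 call in the astrocyte lists (0 with the offset added) and 2 among other cell types, the oligodendrocyte genes *Cldn11* (adjusted p = 0.0395) and *Mag* (0.0473, named after its values were seen), both lower with *Fezf2 shRNA*. For ratios, the smallest p that 4 pairs allow is 0.125, and 4 against 3 libraries cannot go below 0.0571.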
